A study of Mus musculus with 12 samples.

Results

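The 38 genes described here are ligands, latency proteins, receptors, Smads, antagonists and target genes of the TGF-beta and BMP pathways, together with the contractile genes of smooth muscle and their activator Srf. They were picked by gene symbol, and all 38 were found among the 18193 genes that the array annotation names. Where a gene had several probe sets, the one brightest on average across all 12 arrays was read. Ctgf and Cyr61 carry the symbols Ccn2 and Ccn1 in that annotation.

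The cells were mouse embryonic fibroblasts (MEFs), taken from embryos into culture, and their RNA was hybridised to 12 Affymetrix MOE430 2.0 arrays in 4 groups of 3. There were TKO-Ras MEFs (deletions of Rb1, p107 and p130, plus RasG12D), TKO MEFs (the same deletions without mutated Ras), Rb1KO MEFs (a deletion of Rb1) and wild-type (WT) MEFs. p107 and p130 are the proteins of Rbl1 and Rbl2, the relatives of Rb1 that also restrain the cell cycle. All cells were untreated and were collected while growing exponentially, the TKO MEFs were a gift of another laboratory, and the way in which Ras was introduced is not given in the sources used here. Whether the 3 samples of a group, called biological replicates in the labels, came from separate embryos or cultures is not given either, so the p-values measure only the spread between these samples.

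TGF-beta ligands are secreted in a latent form, bound to latency proteins in the matrix, and signal through type I and type II receptors to Smad2 and Smad3. BMP ligands act in the same manner through other Smads and switch on the Id genes, while the inhibitory Smads Smad6 and Smad7 dampen both branches. In fibroblasts, TGF-beta is known for turning the cell into a myofibroblast, which fills its stress fibres with smooth muscle actin and other contractile proteins whose genes are driven by serum response factor (Srf).

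The deposited values are RMA values on the log2 scale, 1 per probe set and array, so that a difference of 1 is a 2-fold change. Differences were tested with limma over all 45037 probe sets, and a gene was called higher or lower at an adjusted p under 0.05. Olfactory receptor genes, which fibroblasts are not known to use, have 44 probe sets, and the 95th percentile of their values, 5.13, served as the background level. Of the 38 genes, 34 lay above it on all 12 arrays, and 1, Myh11 (smooth muscle myosin heavy chain), lay below it on all of them. The deleted genes behaved in part as labelled. Rbl1 lay between 4.0 and 4.99 in TKO-Ras MEFs, between 4.42 and 5.12 in TKO MEFs, between 8.32 and 9.0 on the arrays labelled Rb1KO and between 8.18 and 8.32 in WT MEFs. Rb1 kept a signal of 6.97 to 7.74 in the 3 groups that lack it, against 8.31 to 8.70 in WT MEFs, and the deleted part of the gene is not given. Rbl2 lay between 4.60 and 5.35 in TKO-Ras MEFs and between 5.27 and 5.71 in TKO MEFs, where it is labelled as deleted. It lay between 3.80 and 4.47 on the arrays labelled Rb1KO, a label that does not list it as deleted, and between 7.54 and 7.90 in WT MEFs, so every direction given for this group is that of the arrays so labelled. Col1a2, a collagen gene of fibroblasts, lay between 12.83 and 14.92 on all arrays. Thy1, another fibroblast marker and named here after its values were seen, was below background in TKO-Ras and TKO MEFs, between 5.94 and 6.73 on the arrays labelled Rb1KO and between 10.41 and 11.10 in WT MEFs. Dcn (decorin), also a fibroblast marker and named after its values were seen, went the other way, with means of 10.002 in TKO MEFs and 7.80 in WT MEFs.

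WT replicate 3 stood apart from the other WT arrays in these genes. It differed by 1 or more on the log2 scale from both of them in 15 of the 38 genes, being lower in 13 (Tgfb2, Ltbp1, Inhba, Bmp4, Smad6, Smad7, Ctgf, Cyr61, Id1, Tagln, Cnn1, Myl9 and Tpm2) and higher in 2 (Tgfbr2 and Tgfbr3). Over all probe sets this array was lower in the same way in 2.43% and higher in 2.53%. The other arrays stood apart in 0 to 5 of the 38 genes. Results against WT that this array decides are therefore given with and without it.

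The promoters below are shown because they carry a binding motif of a factor known to drive the gene. They are RefSeq sequences on GRCm38.p6, each running from 250 bases before to 50 bases after the gene start, and 25 of the 38 genes were matched to such a window, 10 of the 13 contractile genes among them. The CArG box, the site of Srf, was present in 4 of the 25 genes, all of them in the contractile group, while 1.63% of the 32851 promoters of this length hold it. Only boxes of 10 letters with nothing but A or T between CC and GG were counted. Boxes with another letter inside, such as ccctatatgg and ccttgtttgg in the Acta2 window, were left out, so a gene without a match may still hold such a box. The motif CATTCC, bound by the TEAD factors that work with YAP, was present in 7 of the 25 genes, against 14.7% of all promoters. Of these 7 genes, 5 were among the 10 contractile genes. The Smad element CAGAC was present in 13 of the 25, against 49.6% of all promoters. Ltbp1, Tgfbr1 and Cald1 had more than 1 window, and a gene was counted if any of its windows matched. The shares over all promoters are of single windows, so the comparison is not exact. Both strands were searched, no match of one motif overlapped one of another in the promoters printed, and a match is a description of letters, not of a bound site. Capitals mark the CArG box in the first 4 sequences and CATTCC in the last. The Vcl sequence also holds CATTCC on the other strand, printed as ggaatg without capitals, 143 bases before the start.
Myl9: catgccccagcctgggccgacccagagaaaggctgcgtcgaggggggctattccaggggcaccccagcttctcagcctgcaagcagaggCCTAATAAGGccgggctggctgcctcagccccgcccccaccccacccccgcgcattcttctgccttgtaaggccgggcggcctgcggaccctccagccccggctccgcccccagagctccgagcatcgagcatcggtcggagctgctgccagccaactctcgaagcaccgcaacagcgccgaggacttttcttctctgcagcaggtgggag
Cnn2: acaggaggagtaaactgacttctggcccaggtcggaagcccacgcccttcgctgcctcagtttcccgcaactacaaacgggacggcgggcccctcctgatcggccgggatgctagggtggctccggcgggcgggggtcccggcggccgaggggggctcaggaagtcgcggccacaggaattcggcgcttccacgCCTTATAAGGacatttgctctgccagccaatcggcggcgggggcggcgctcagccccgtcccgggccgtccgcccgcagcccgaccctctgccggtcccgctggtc
Vcl: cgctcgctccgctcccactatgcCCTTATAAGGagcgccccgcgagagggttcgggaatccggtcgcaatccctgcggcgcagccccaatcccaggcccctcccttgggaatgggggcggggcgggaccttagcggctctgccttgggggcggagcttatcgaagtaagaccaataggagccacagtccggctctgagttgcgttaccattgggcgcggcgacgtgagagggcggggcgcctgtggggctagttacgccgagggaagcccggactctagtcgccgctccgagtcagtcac
Srf: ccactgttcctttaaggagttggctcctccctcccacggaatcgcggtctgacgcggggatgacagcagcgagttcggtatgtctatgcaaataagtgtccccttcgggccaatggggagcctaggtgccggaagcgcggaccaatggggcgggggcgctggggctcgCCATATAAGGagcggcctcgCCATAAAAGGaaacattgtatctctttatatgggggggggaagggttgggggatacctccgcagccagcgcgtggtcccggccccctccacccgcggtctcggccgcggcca
Cyr61: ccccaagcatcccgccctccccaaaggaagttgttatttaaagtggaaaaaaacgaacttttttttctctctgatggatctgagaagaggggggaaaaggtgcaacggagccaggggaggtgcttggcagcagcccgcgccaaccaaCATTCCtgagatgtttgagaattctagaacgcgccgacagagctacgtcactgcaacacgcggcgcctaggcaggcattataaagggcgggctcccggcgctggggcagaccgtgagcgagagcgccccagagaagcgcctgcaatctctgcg
The Myl9 window lies at chr2:156775214-156775513 on the plus strand, and its CArG box, CCTAATAAGG, begins 161 bases before the gene start. In Cnn2 (chr10:79988350-79988649, plus strand) the box reads CCTTATAAGG and begins 56 bases before the start. The box of Vcl (chr14:20929148-20929447, plus strand) has the same letters and begins 227 bases before the start. Srf (chr17:46556113-46556412, minus strand) holds 2 boxes, CCATATAAGG at 82 and CCATAAAAGG at 62 bases before its own start. The Cyr61 window lies at chr3:145649936-145650235 on the minus strand, with CATTCC 103 bases before the start.

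Most of the genes that changed were lower in the cells without Rb family genes. In TKO against WT MEFs, 1 of the 38 genes was called higher (Tgfb1) and 12 lower, 34.2% in all, where 19.5% of all probe sets were called. Of all probe sets 9.01% were called lower and 10.5% higher, and the median log2 fold change was -0.51 over the 38 genes and 0.03 over all probe sets. In the arrays labelled Rb1KO against WT, 2 genes were called higher (Bambi and Smad2) and 13 lower, 39.5% in all against 22.6% of all probe sets, with 10.1% of all probe sets called lower and 12.5% higher. The median was -0.63 over the 38 genes and 0.07 over all probe sets. These comparisons share the WT arrays and are not independent of each other. Between TKO and Rb1KO arrays only 3 genes were called (Tgfb1 and Bmp4 higher, Bambi lower), 7.89% against 7.17% of all probe sets, which is close to the share over the whole array (4.19% higher and 2.99% lower). In TKO-Ras against TKO MEFs, 0 genes were called higher and 8 lower by limma, 21.1% against 5.67% of all probe sets, with 3.13% of all probe sets called lower and 2.54% higher. At an unadjusted p under 0.05, 3 genes were higher there, and the contrasts of the study's methods, with plain variances, also called 0 higher. The median there was -0.25 over the 38 genes and 0.04 over all probe sets. The 3 arrays of each group did not overlap in 13 of the 38 genes between TKO and WT MEFs (34.4% of all probe sets), in 16 between Rb1KO and WT (39.1%), in 10 between TKO and Rb1KO (29.1%) and in 17 between TKO-Ras and TKO MEFs (26.5%). In bulk RNA, fewer cells that express a gene cannot be told apart from less of its RNA in each cell.

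**Figure D1:**
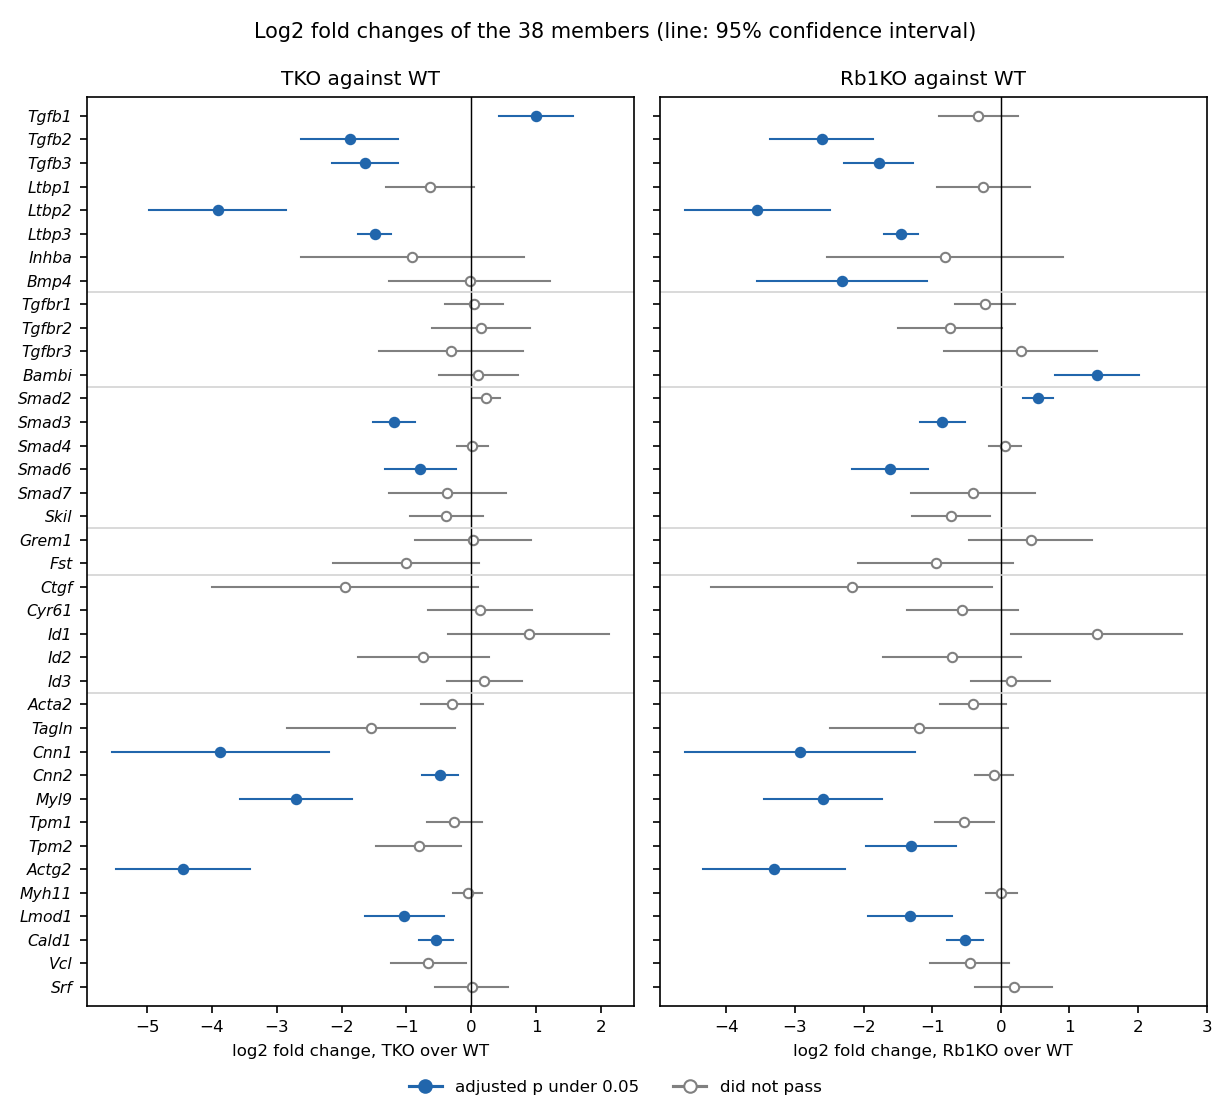
Log2 fold changes of the 38 genes in TKO over WT MEFs (left) and in the arrays labelled Rb1KO over WT (right), with 95% confidence intervals as lines and genes grouped by role. Filled points passed at an adjusted p under 0.05, and they lie left of 0 for 12 genes in TKO and 13 in Rb1KO, with Actg2 at -4.45 in TKO and Ltbp2 at -3.55 in Rb1KO the furthest out.

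Myl9, the regulatory light chain of smooth muscle myosin, was lower in the knockouts and lower still with mutated Ras. Its log2 values were 5.40, 5.43 and 6.48 in TKO-Ras MEFs, 9.71, 10.27 and 9.13 in TKO MEFs, 9.84, 9.995 and 9.61 on the arrays labelled Rb1KO and 12.64, 12.98 and 11.59 in WT MEFs. The 3 levels (TKO-Ras, then TKO with Rb1KO, then WT) did not overlap, while the TKO and Rb1KO arrays overlapped each other. Myl9 fell in TKO against WT MEFs by 2.71 on the log2 scale (SE 0.39, adjusted p = 0.000616 by limma), a 6.52-fold difference. The fall on the arrays labelled Rb1KO was 2.59 (SE 0.39, adjusted p = 0.000656). In TKO-Ras against TKO MEFs it fell by 3.93 (SE 0.39, adjusted p = 0.000192), a 15.2-fold difference.

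Actg2, the gamma actin of enteric smooth muscle, had the largest fall of the 38 genes in TKO against WT MEFs. It read 5.35, 5.01 and 6.11 in TKO-Ras MEFs, 6.90, 6.80 and 5.22 in TKO MEFs, 7.82, 7.69 and 6.85 on the arrays labelled Rb1KO and 11.42, 10.33 and 10.51 in WT MEFs. Every array of the groups without Rb1 lay well below the lowest WT array. The log2 fold change was -4.45 (SE 0.47, adjusted p = 6.96e-05) in TKO, a 21.8-fold difference, and -3.30 (adjusted p = 0.000423) in the arrays labelled Rb1KO. TKO-Ras and TKO MEFs overlapped in this gene, which was not called between them. Cnn1, the basic calponin that binds actin in smooth muscle, was 4.84, 4.03 and 4.92 in TKO-Ras MEFs, all below background, 6.93, 6.66 and 4.95 in TKO MEFs, 7.32, 7.26 and 6.81 on the arrays labelled Rb1KO and 10.91, 11.30 and 7.94 in WT MEFs. Both knockout groups lay below all 3 WT arrays, although WT replicate 3 was about 3 below the others. Cnn1 gave a log2 fold change of -3.87 in TKO against WT MEFs (adjusted p = 0.0041), which was -4.92 without WT replicate 3, -3.24 without WT replicate 2 and -3.26 without TKO replicate 3. On the arrays labelled Rb1KO it was -2.92 (adjusted p = 0.0165) and -3.98 without WT replicate 3, and the call was lost without WT replicate 1 (-2.50, adjusted p = 0.0668), without WT replicate 2 (-2.30, adjusted p = 0.0623) and without Rb1KO replicate 3 (-2.76, adjusted p = 0.0585). The TKO mean of Cnn1 lay 2.07-fold above the background level, although TKO replicate 3 lay below that level. The difference between TKO-Ras and TKO MEFs did not pass (adjusted p = 0.29), so no lower bound is given for it.

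Acta2 and Tagln, the best known myofibroblast markers, separated TKO-Ras MEFs from every other group. Acta2, smooth muscle alpha actin, read 11.18, 11.36 and 12.05 in TKO-Ras MEFs, 13.90, 13.95 and 13.80 in TKO MEFs, 13.73, 13.84 and 13.73 on the arrays labelled Rb1KO and 14.40, 14.37 and 13.75 in WT MEFs. It fell by 2.35 in TKO-Ras against TKO MEFs (SE 0.22, adjusted p = 0.000112), a 5.10-fold difference, while neither knockout was called against WT. Tagln, transgelin or SM22 alpha, read 8.14, 8.51 and 9.04 in TKO-Ras MEFs, 12.55, 12.48 and 10.83 in TKO MEFs, 12.15, 12.73 and 12.05 on the arrays labelled Rb1KO and 14.13, 14.34 and 12.04 in WT MEFs. TKO-Ras MEFs lay below all other arrays, and WT replicate 3 lay among the knockout arrays. Tagln fell in TKO-Ras against TKO MEFs by 3.39 (SE 0.59, adjusted p = 0.00645), a 10.5-fold difference. Without WT replicate 3 it was also called lower against WT, at -2.28 in TKO MEFs (adjusted p = 0.0036) and at -1.93 on the arrays labelled Rb1KO (adjusted p = 0.00854).

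Acta2 depended on the probe set. The one read here, 1416454_s_at, gave -0.29 in TKO against WT MEFs and -0.41 on the arrays labelled Rb1KO, neither called, although without WT replicate 3 the second was -0.62 (adjusted p = 0.0453). The dimmer 1444105_at gave -2.64 (adjusted p = 0.0033) in TKO against WT MEFs and -2.69 (adjusted p = 0.0024) on the arrays labelled Rb1KO. The dimmest, 1456658_at, was called lower in both comparisons (adjusted p = 9.12e-05 and 0.000175). It averaged 5.73 in WT MEFs, and 3.79 in TKO MEFs and 4.02 on the arrays labelled Rb1KO, both below background. The size of its falls is therefore not given. In TKO-Ras against TKO MEFs 1444105_at was not called (adjusted p = 0.0545). It averaged 3.78 in TKO-Ras MEFs, below background, and 5.65 in TKO MEFs, so the size of this difference is not given either. On average 1456658_at was below background in both groups.

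**Figure D2:**
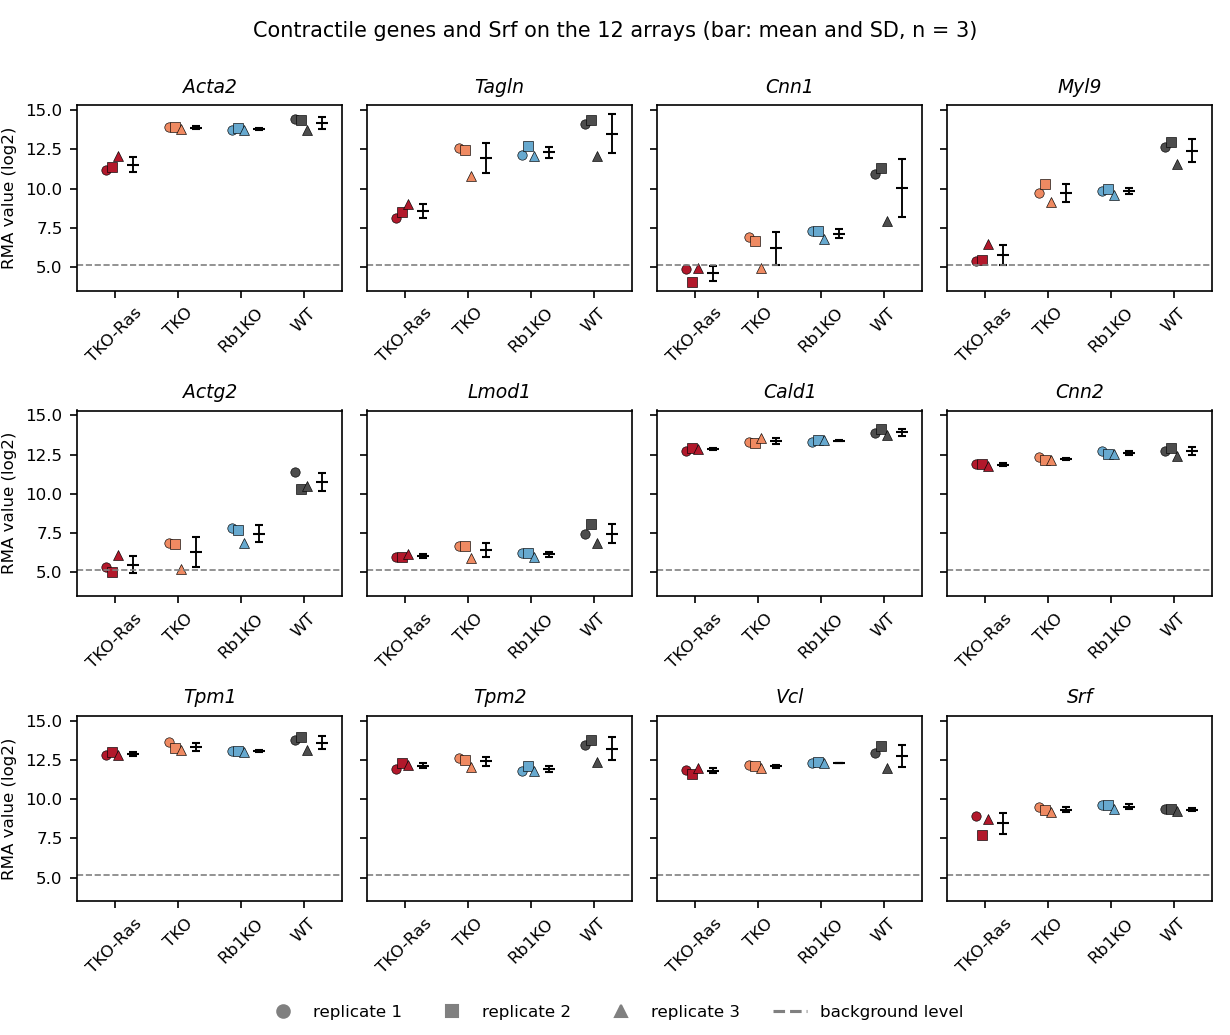
RMA values (log2) of 11 contractile genes and Srf on each of the 12 arrays, by group from TKO-Ras at the left to WT at the right, with the replicate number as the marker shape, the mean and SD (n = 3) as bars and the background level of 5.13 dashed. Myl9, Tagln and Acta2 step down at TKO-Ras, Actg2 and Cnn1 step down in all groups without Rb1, and WT replicate 3 (triangle) lies below the other WT arrays in Tagln, Cnn1, Myl9 and Tpm2.

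Among the other contractile genes, Cald1, caldesmon, which regulates the binding of myosin to actin, was 12.75, 12.90 and 12.89 in TKO-Ras MEFs, 13.33, 13.23 and 13.56 in TKO MEFs, 13.33, 13.42 and 13.44 on the arrays labelled Rb1KO and 13.87, 14.13 and 13.74 in WT MEFs. It fell by 0.54 in TKO against WT MEFs (adjusted p = 0.00814), by 0.52 on the arrays labelled Rb1KO (adjusted p = 0.00907) and by 0.52 in TKO-Ras against TKO MEFs (adjusted p = 0.0275), with no overlap in any of these comparisons. The last call was lost without TKO replicate 1 or 3 or TKO-Ras replicate 1 or 3 (adjusted p = 0.0599 to 0.105). Lmod1, leiomodin, an actin nucleator of smooth muscle, read 5.99, 5.96 and 6.18 in TKO-Ras MEFs, 6.69, 6.68 and 5.92 in TKO MEFs, 6.25, 6.22 and 5.95 on the arrays labelled Rb1KO and 7.44, 8.07 and 6.87 in WT MEFs. The WT arrays were the highest, and the log2 fold change was -1.03 in TKO MEFs (adjusted p = 0.0216) and -1.32 on the arrays labelled Rb1KO (adjusted p = 0.00483). In TKO MEFs the Lmod1 call was lost without TKO replicate 3, WT replicate 1 or WT replicate 2 (adjusted p = 0.0539 to 0.0743). Cnn2, the calponin that is also found outside smooth muscle, averaged 12.22 ± 0.08 in TKO MEFs and 12.70 ± 0.25 in WT MEFs (SD, n = 3 each). It was called lower there (-0.48, adjusted p = 0.0197), a call lost without TKO replicate 2 or 3 or WT replicate 1 or 2 (adjusted p = 0.0556 to 0.0737). Tpm2, beta tropomyosin, averaged 11.90 ± 0.20 on the arrays labelled Rb1KO and 13.21 ± 0.75 in WT MEFs (SD, n = 3 each), where it fell by 1.31 (adjusted p = 0.00815). In TKO against WT MEFs it was called lower when WT replicate 3 was left out (-1.23, adjusted p = 0.00064). Of its 4 probe sets, 1419739_at, which is near background, gave -0.32 in the same comparison (adjusted p = 0.123).

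Tpm1 (alpha tropomyosin) and Vcl (vinculin, which ties actin to adhesions) were not called against WT with all arrays and the probe sets read here. Tpm1 averaged 13.33 ± 0.27 in TKO MEFs, 13.07 ± 0.04 on the arrays labelled Rb1KO and 13.60 ± 0.43 in WT MEFs (SD, n = 3 each). Vcl averaged 12.11 ± 0.09 in TKO MEFs, 12.32 ± 0.02 on the arrays labelled Rb1KO and 12.77 ± 0.70 in WT MEFs. Other settings called Tpm1 lower on the arrays labelled Rb1KO with all arrays, at -0.71 after cyclic loess (adjusted p = 0.0149), at -0.76 with its probe sets averaged, at -0.53 with suffixed probe sets left out (adjusted p = 0.035) and at -0.53 with the replicate number as a block (adjusted p = 0.049). Of its other probe sets, 1456623_at was called lower in TKO against WT MEFs (-0.88, adjusted p = 0.0227) and on the arrays labelled Rb1KO (-1.44, adjusted p = 0.00117), and 1423721_at was called on the arrays labelled Rb1KO (-0.53, adjusted p = 0.0319). Without WT replicate 3 both Tpm1 and Vcl were called lower in each comparison, Vcl at -1.05 in TKO MEFs (adjusted p = 0.000377) and at -0.84 on the arrays labelled Rb1KO (adjusted p = 0.00143). Srf itself read 8.94, 7.71 and 8.74 in TKO-Ras MEFs, 9.53, 9.32 and 9.16 in TKO MEFs, 9.60, 9.60 and 9.35 on the arrays labelled Rb1KO and 9.35, 9.40 and 9.22 in WT MEFs. The TKO, Rb1KO and WT arrays overlapped, and every TKO-Ras array lay below the TKO arrays without the difference being called. It was called without TKO-Ras replicate 1 (-1.11, adjusted p = 0.0414). The other Srf probe set, 1418256_at, above background on all 12 arrays, did not show this fall (-0.07 in TKO-Ras against TKO MEFs, adjusted p = 0.898). Of the genes with a CArG box printed above, Myl9 was called lower in 3 of the 4 comparisons, Cnn2 in 1, and Vcl and Srf in 0.

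Taking the 13 contractile genes by count, 0 were called higher and 6 lower in TKO against WT MEFs, where 9.01% of all probe sets were called lower. Against WT, 0 were higher and 6 lower on the arrays labelled Rb1KO, where 10.1% of all probe sets were called lower, and in TKO-Ras against TKO MEFs 0 were higher and 4 lower, against 3.13%. Without WT replicate 3 the number lower was 10 of 13 in each comparison with WT. Of all probe sets 21.0% were then called in TKO (10.9% higher and the rest lower) and 23.9% on the arrays labelled Rb1KO (12.6% higher and the rest lower). Between TKO and Rb1KO arrays, where 7.17% of all probe sets were called, 0 of the 13 were called by limma and 2 were lower at an unadjusted p under 0.05. The intervals of the difference were wide for some. The interval of Acta2 ran from -0.36 to 0.59 on the log2 scale and that of Cald1 from -0.29 to 0.24, but that of Cnn1 ran from -2.62 to 0.73. In none of the 4 comparisons was a contractile gene higher at an unadjusted p under 0.05.

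Markers of other contractile cells were measured beside these genes. Of 8 markers of pericytes and vascular smooth muscle, 1 was called higher in TKO against Rb1KO and 0 by limma in the other comparisons, where 1 was lower in TKO-Ras against TKO and 1 higher in TKO against WT at an unadjusted p under 0.05. Of these 8 markers, 3 were below background on all 12 arrays, and the linear values (RMA values taken out of the log) summed over the 8 ranged from 906 to 1260 in TKO-Ras MEFs, from 801 to 1160 in TKO MEFs, from 933 to 1030 on the arrays labelled Rb1KO and from 704 to 1610 in WT MEFs. Of 10 markers of skeletal and cardiac muscle, 5 were below background on all arrays, and 0 were called by limma in TKO against WT MEFs and 1 in each of the other comparisons. Beside the counts of both lists, 19.5% of all probe sets were called in TKO against WT and 22.6% in Rb1KO against WT. In TKO against Rb1KO 7.17% were called, and in TKO-Ras against TKO 5.67%. Tnnt2, cardiac troponin T and named after its values were seen, read 9.20, 9.07 and 7.62 in TKO-Ras MEFs, 5.23, 4.18 and 4.04 in TKO MEFs, 6.05, 8.08 and 4.95 on the arrays labelled Rb1KO and 6.02, 6.26 and 3.85 in WT MEFs. It was called higher in TKO-Ras against TKO MEFs, by 4.15 (adjusted p = 0.0119), where 4 contractile genes were lower, and the call was lost without TKO replicate 2, TKO replicate 3 or TKO-Ras replicate 1 (adjusted p = 0.0505 to 0.0542). The brightest in WT, the skeletal actin gene Acta1, read 9.21, 9.83 and 6.44 on the WT arrays, with WT replicate 3 again the lowest. The summed linear values of the muscle list ranged from 571 to 955 in TKO-Ras MEFs, from 408 to 442 in TKO MEFs, from 429 to 870 on the arrays labelled Rb1KO and from 346 to 1270 in WT MEFs, and their part in the results was not tested.

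The TGF-beta ligands moved in different directions. Tgfb2 read 6.15, 6.23 and 6.08 in TKO-Ras MEFs, 8.89, 8.58 and 8.48 in TKO MEFs, 8.30, 7.74 and 7.73 on the arrays labelled Rb1KO and 10.88, 11.18 and 9.53 in WT MEFs. TKO-Ras MEFs were the lowest and WT MEFs the highest, with no overlap with the other groups. Tgfb2 fell by 1.88 in TKO against WT MEFs (SE 0.34, adjusted p = 0.00254), fell by 2.61 on the arrays labelled Rb1KO (SE 0.34, adjusted p = 0.000237) and fell by 2.50 in TKO-Ras against TKO MEFs (SE 0.34, adjusted p = 0.00146). All 4 of its probe sets were called lower in each of these comparisons. Tgfb3 read 8.07, 7.88 and 7.36 in TKO-Ras MEFs, 9.11, 8.93 and 8.56 in TKO MEFs, 8.67, 8.64 and 8.86 on the arrays labelled Rb1KO and 10.64, 10.84 and 10.03 in WT MEFs. It was in the same order as Tgfb2, with falls of 1.64 in TKO (adjusted p = 0.000511) and 1.78 on the arrays labelled Rb1KO (adjusted p = 0.000226) against WT. In TKO-Ras against TKO MEFs Tgfb3 fell by 1.10 (adjusted p = 0.0179), a call lost without TKO replicate 1, TKO replicate 2 or TKO-Ras replicate 3 (adjusted p = 0.0651 to 0.0709).

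Tgfb1 was the only one of the 38 genes called higher in TKO against WT MEFs. Its values were 6.97, 6.37 and 6.60 in TKO-Ras MEFs, 6.79, 6.94 and 6.86 in TKO MEFs, 5.37, 6.10 and 5.14 on the arrays labelled Rb1KO and 6.04, 6.18 and 5.37 in WT MEFs. Every TKO and TKO-Ras array lay above every array labelled Rb1KO and every WT array, and all of these values were low on the scale of the arrays. The log2 fold change was 1.0 in TKO against WT MEFs (SE 0.26, adjusted p = 0.0194), and the call was lost without TKO replicate 2 (0.96, adjusted p = 0.0654). Against the arrays labelled Rb1KO, TKO MEFs were higher by 1.33 (SE 0.26, adjusted p = 0.00967). The other Tgfb1 probe set was below background on all 12 arrays.

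Ltbp2 and Ltbp3, named as members of the latent TGF-beta binding protein family, both fell. Ltbp2 read 4.74, 5.08 and 4.41 in TKO-Ras MEFs, all below background, 6.57, 6.94 and 6.61 in TKO MEFs, 6.34, 8.52 and 6.34 on the arrays labelled Rb1KO and 10.28, 10.47 and 11.10 in WT MEFs. The WT arrays lay well above all others, and Rb1KO replicate 2 stood about 2 above the other arrays of its label. Ltbp2 fell by 3.91 in TKO against WT MEFs (SE 0.48, adjusted p = 0.000198), a 15.0-fold difference, and by 3.55 on the arrays labelled Rb1KO (adjusted p = 0.000309), where leaving out Rb1KO replicate 2 gave -4.28. TKO-Ras MEFs were at least 2.98-fold lower than TKO MEFs in Ltbp2 (adjusted p = 0.0365), a call lost when any 1 of these 6 arrays was left out (adjusted p = 0.0571 to 0.129). Ltbp3 read 11.02, 11.06 and 11.27 in TKO-Ras MEFs, 10.66, 10.67 and 10.77 in TKO MEFs, 10.68, 10.92 and 10.61 on the arrays labelled Rb1KO and 12.35, 12.09 and 12.14 in WT MEFs. The WT arrays were the highest, and the spread within each group was small. It fell by 1.49 in TKO against WT MEFs (SE 0.12, adjusted p = 8.42e-06) and by 1.46 on the arrays labelled Rb1KO (SE 0.12, adjusted p = 8.42e-06), and all 4 of its probe sets were called lower in both comparisons.

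Ltbp1, of the same family, and Inhba, the subunit of activin A, were not called with all arrays. Inhba read 11.05, 10.97 and 10.81 in TKO-Ras MEFs, 11.13, 9.53 and 9.28 in TKO MEFs, 9.94, 10.64 and 9.65 on the arrays labelled Rb1KO and 11.57, 12.41 and 8.67 in WT MEFs, so that WT replicate 3 was the lowest of all 12 arrays. Without that array Inhba was called lower in TKO (-2.01, adjusted p = 0.0103) and on the arrays labelled Rb1KO (-1.92, adjusted p = 0.0119), as was Ltbp1 (-1.05, adjusted p = 0.00382, and -0.66, adjusted p = 0.0387). Bmp4, a BMP ligand, read 9.99, 10.23 and 10.12 in TKO-Ras MEFs, 9.90, 10.38 and 10.23 in TKO MEFs, 8.67, 6.63 and 8.33 on the arrays labelled Rb1KO and 11.01, 10.73 and 8.84 in WT MEFs. It was lowest on the arrays labelled Rb1KO, which did not overlap the other groups. Bmp4 fell by 2.32 on the arrays labelled Rb1KO against WT (SE 0.57, adjusted p = 0.0118). The log2 fold change was -2.99 without WT replicate 3 and -1.69 without Rb1KO replicate 2, and the call was lost without WT replicate 1 (-1.91, adjusted p = 0.0501). TKO MEFs were higher than the arrays labelled Rb1KO by 2.29 (adjusted p = 0.0316), or by 1.67 without Rb1KO replicate 2 (adjusted p = 0.103), and that call was also lost without Rb1KO replicate 3 or any 1 TKO array (adjusted p = 0.0574 to 0.107).

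**Figure D3:**
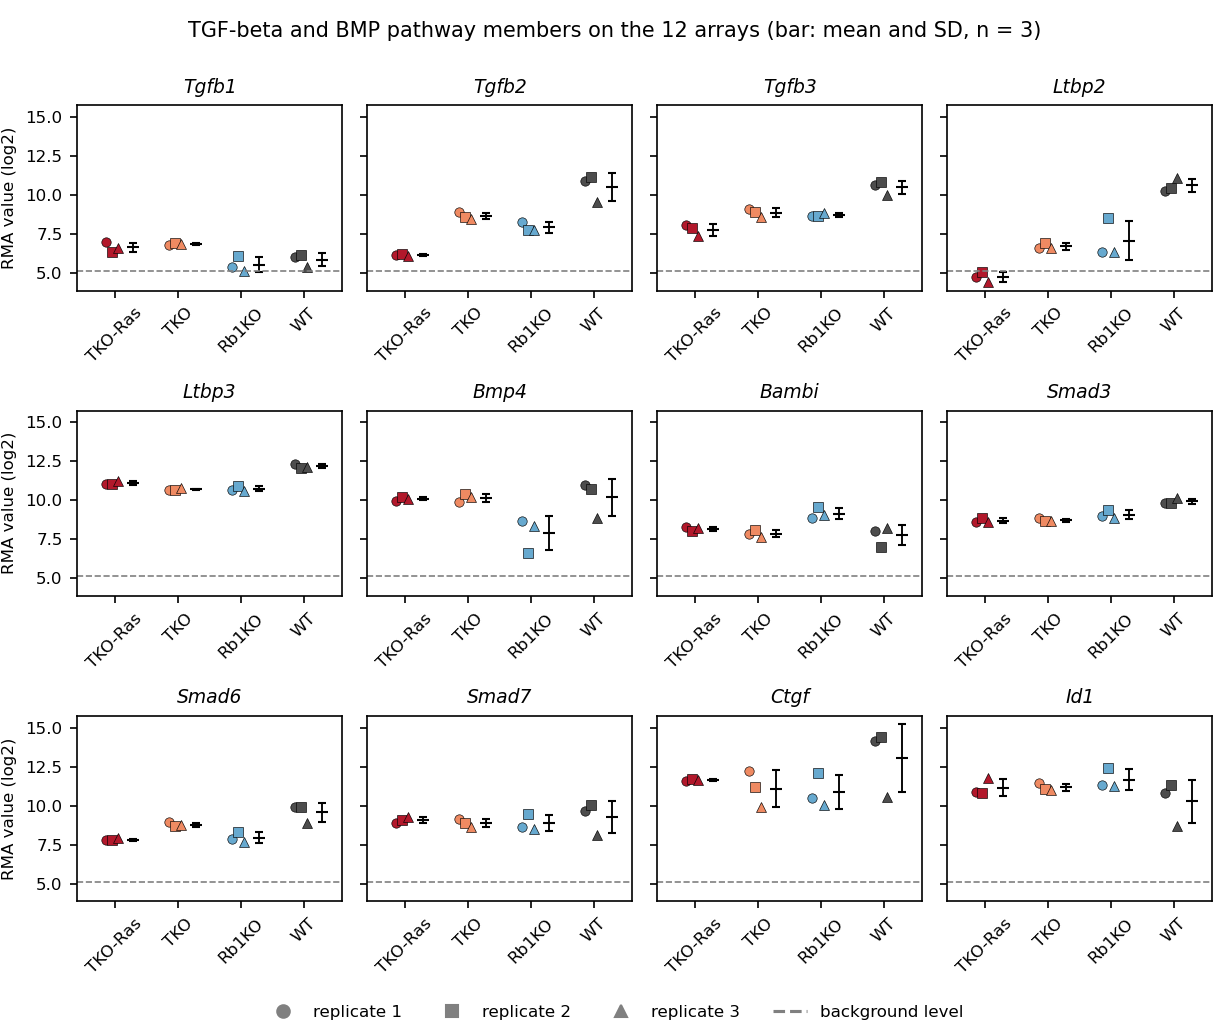
RMA values (log2) of 12 pathway genes on each of the 12 arrays, by group from TKO-Ras at the left to WT at the right, with the replicate number as the marker shape, the mean and SD (n = 3) as bars and the background level of 5.13 dashed. Tgfb2, Tgfb3 and Ltbp2 are lowest in TKO-Ras and highest in WT, Tgfb1 is higher in TKO-Ras and TKO than in Rb1KO and WT, and Bmp4 is lowest in Rb1KO.

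Of the 4 receptor genes, 1 was called in any comparison, the pseudoreceptor Bambi, which takes the place of a type I receptor without a kinase. Of all probe sets 19.5% were called in TKO against WT and 22.6% in Rb1KO against WT. In TKO against Rb1KO 7.17% were called, and in TKO-Ras against TKO 5.67%. Bambi read 8.26, 8.01 and 8.25 in TKO-Ras MEFs and 7.83, 8.12 and 7.65 in TKO MEFs. It read 8.85, 9.55 and 9.06 on the arrays labelled Rb1KO and 8.01, 7.03 and 8.22 in WT MEFs. The arrays labelled Rb1KO were the highest and overlapped no other group. Bambi was higher on them than in WT MEFs by 1.40 (SE 0.28, adjusted p = 0.00372), and it was lower in TKO MEFs than on them, at -1.29 (SE 0.28, adjusted p = 0.0166). The second call was lost without Rb1KO replicate 2, TKO replicate 1 or TKO replicate 3 (adjusted p = 0.0518 to 0.0719). The type I receptor Tgfbr1 averaged 10.53 ± 0.28 in TKO-Ras MEFs, 10.05 ± 0.06 in TKO MEFs, 9.78 ± 0.32 on the arrays labelled Rb1KO and 10.01 ± 0.33 in WT MEFs (SD, n = 3 each). Tgfbr2, the type II receptor, read 11.41, 12.06 and 11.83 in TKO MEFs and 11.21, 11.05 and 12.60 in WT MEFs, with WT replicate 3 the highest of all. It was called higher in TKO MEFs without that array (0.63, adjusted p = 0.0491). The co-receptor Tgfbr3 lay between 9.03 and 11.42 over the 12 arrays, a range that the WT arrays alone spanned.

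Among the Smads, Smad3, a direct carrier of the TGF-beta signal, read 8.59, 8.87 and 8.62 in TKO-Ras MEFs, 8.85, 8.70 and 8.67 in TKO MEFs, 8.99, 9.39 and 8.85 on the arrays labelled Rb1KO and 9.82, 9.83 and 10.14 in WT MEFs. All 3 WT arrays, WT replicate 3 included, lay above the rest. Smad3 fell by 1.19 in TKO against WT MEFs (SE 0.15, adjusted p = 0.000224) and by 0.86 on the arrays labelled Rb1KO (SE 0.15, adjusted p = 0.00164), and its other 2 probe sets were at or near background. Smad2, the partner of Smad3, averaged 9.60 ± 0.10 on the arrays labelled Rb1KO and 9.05 ± 0.07 in WT MEFs (SD, n = 3 each), a log2 fold change of 0.54 (SE 0.10, adjusted p = 0.00232) that the other probe set, at -0.12, did not show. Smad4, the partner shared by both branches, lay between 11.42 and 11.72 on all 12 arrays.

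Smad6, which inhibits mainly the BMP branch, read 7.77, 7.81 and 7.90 in TKO-Ras MEFs, 8.93, 8.67 and 8.75 in TKO MEFs, 7.89, 8.32 and 7.65 on the arrays labelled Rb1KO and 9.90, 9.91 and 8.89 in WT MEFs. WT replicate 3 lay within the TKO range. Smad6 fell by 1.61 on the arrays labelled Rb1KO against WT (SE 0.25, adjusted p = 0.000729) and by 0.79 in TKO against WT MEFs (SE 0.25, adjusted p = 0.0462). The second call was lost when any 1 TKO array, WT replicate 1 or WT replicate 2 was left out (adjusted p = 0.0796 to 0.161), and it was -1.13 without WT replicate 3 (adjusted p = 0.000573). In TKO-Ras against TKO MEFs Smad6 fell by 0.95 (adjusted p = 0.0486), a call lost when any 1 of these 6 arrays was left out (adjusted p = 0.105 to 0.135). Smad7, which inhibits the TGF-beta branch, read 8.90, 9.09 and 9.30 in TKO-Ras MEFs, 9.15, 8.92 and 8.63 in TKO MEFs, 8.66, 9.45 and 8.48 on the arrays labelled Rb1KO and 9.63, 10.04 and 8.13 in WT MEFs, with both ends of the range in WT. Smad7 and Skil, a co-repressor that binds Smads, were not called with all arrays but were called lower in both comparisons with WT when WT replicate 3 was left out, Smad7 at -0.94 in TKO (adjusted p = 0.0261) and Skil at -0.68 (adjusted p = 0.0454). On the arrays labelled Rb1KO Smad7 was then at -0.97 (adjusted p = 0.0192) and Skil at -1.02 (adjusted p = 0.00492), and Skil was also called there after cyclic loess between arrays (-0.86, adjusted p = 0.0305).

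The 2 secreted antagonists and 5 target genes gave 0 calls by limma in each comparison with all arrays. Of all probe sets 19.5% were called in TKO against WT MEFs and 22.6% in Rb1KO against WT. In TKO against Rb1KO 7.17% were called, and in TKO-Ras against TKO 5.67%, so few calls could be looked for among so few genes. At an unadjusted p under 0.05, 1 target gene was lower and 1 higher on the arrays labelled Rb1KO against WT, and 1 was lower in TKO-Ras against TKO MEFs. Grem1, gremlin, which binds BMPs, lay between 10.33 and 12.17 over the 12 arrays, with the lowest value on WT replicate 2. Fst, follistatin, which binds activins, lay between 6.90 and 9.75. Ctgf, connective tissue growth factor and the target of TGF-beta and YAP most often measured, read 11.60, 11.69 and 11.64 in TKO-Ras MEFs, 12.23, 11.17 and 9.89 in TKO MEFs, 10.47, 12.09 and 10.04 on the arrays labelled Rb1KO and 14.16, 14.43 and 10.53 in WT MEFs. WT replicates 1 and 2 lay above every other array by about 2, and WT replicate 3 lay among the knockout arrays. Ctgf gave a log2 fold change of -1.95 in TKO against WT MEFs (adjusted p = 0.184) and of -3.20 without WT replicate 3 (adjusted p = 0.00343). On the arrays labelled Rb1KO it gave -2.17 (adjusted p = 0.126) and -3.43 without that array (adjusted p = 0.00191).

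Cyr61, a matricellular protein and target of Srf and YAP, read 12.41, 12.28 and 12.54 in TKO-Ras MEFs, 12.83, 12.88 and 12.14 in TKO MEFs, 11.68, 12.38 and 11.72 on the arrays labelled Rb1KO and 12.81, 13.14 and 11.50 in WT MEFs. The groups overlapped, and its 4 probe sets differed. In TKO against WT MEFs 1416039_x_at, the one read here, gave 0.13 and 1438133_a_at gave 0.82, neither called, while 1457823_at gave -1.90 (adjusted p = 0.00271) and 1442340_x_at gave -1.88 (adjusted p = 0.00399). On the arrays labelled Rb1KO 1457823_at gave -2.14 (adjusted p = 0.00107) and 1442340_x_at gave -2.15 (adjusted p = 0.00142) against WT. The probe set read here gave -1.05 there without WT replicate 3 (adjusted p = 0.00985). In TKO against Rb1KO 1438133_a_at was called higher at 1.72 (adjusted p = 0.0254), while the probe set read here was not called (0.69, adjusted p = 0.332). Id1, Id2 and Id3, inhibitors of differentiation and targets of BMP, were not called in any comparison with all arrays. Id1 read 10.87, 10.81 and 11.80 in TKO-Ras MEFs, 11.44, 11.08 and 10.97 in TKO MEFs, 11.34, 12.42 and 11.27 on the arrays labelled Rb1KO and 10.78, 11.33 and 8.72 in WT MEFs, WT replicate 3 being about 2 below the rest of its group. It was called higher on the arrays labelled Rb1KO when WT replicate 2 was left out (1.92, adjusted p = 0.0328). Id2 lay between 8.82 and 10.46 and Id3 between 11.03 and 12.33 over the 12 arrays.

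**Figure D4:**
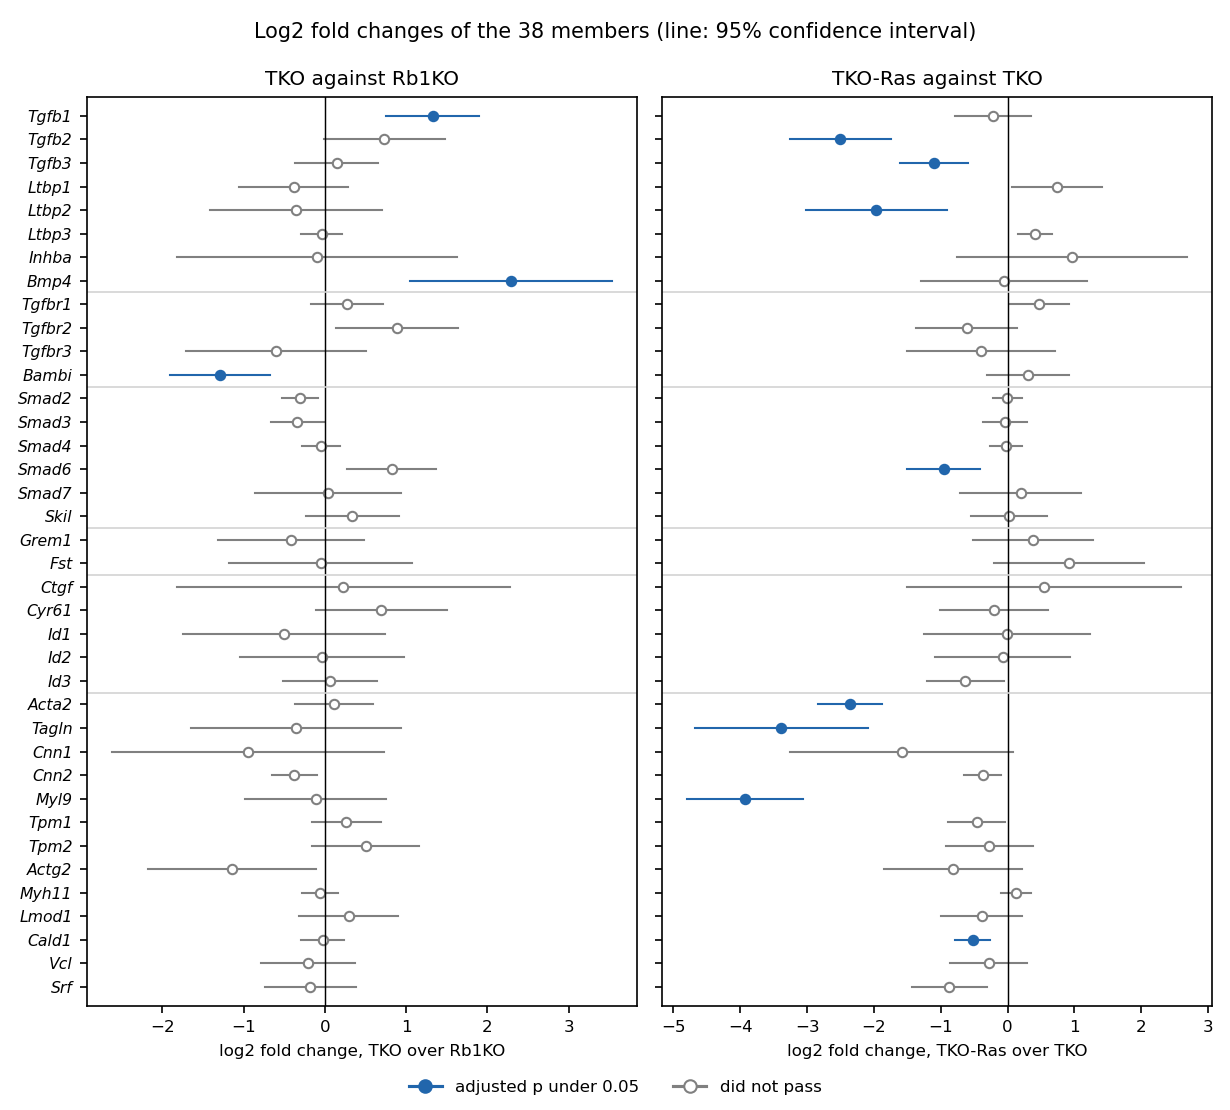
Log2 fold changes of the 38 genes in TKO MEFs over the arrays labelled Rb1KO (left) and in TKO-Ras over TKO MEFs (right), with 95% confidence intervals as lines. Filled points passed at an adjusted p under 0.05, which 3 genes did on the left, and 8 did on the right, where all 8 lie left of 0 and Myl9 lies furthest out at -3.93. The value of Ltbp2 on the right is a fit against arrays below background.

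Leaving out WT replicate 3 raised the number of genes called lower. In TKO against WT MEFs it became 21 of the 38 genes, with 2 higher, while 21.0% of all probe sets were called, 10.9% higher and the rest lower. On the arrays labelled Rb1KO it became 23 lower and 2 higher, with 23.9% of all probe sets called, 12.6% higher and the rest lower. The falls of Ltbp3, Smad3 and Ltbp2 moved little, to -1.52, -1.09 and -3.67 in TKO against WT MEFs. Among the genes called without that array, the largest moves were those of Ctgf and Inhba among the signalling genes and of Cnn1 and Tagln among the contractile ones. Linear values summed over the 13 contractile genes ranged from 28800 to 32300 in TKO-Ras MEFs, from 51400 to 62400 in TKO MEFs, from 53700 to 59000 on the arrays labelled Rb1KO and from 61000 to 121000 in WT MEFs, where WT replicate 3 gave the lowest value. The part of this array in the results, beyond the values with and without it, was not tested.

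**Figure D5:**
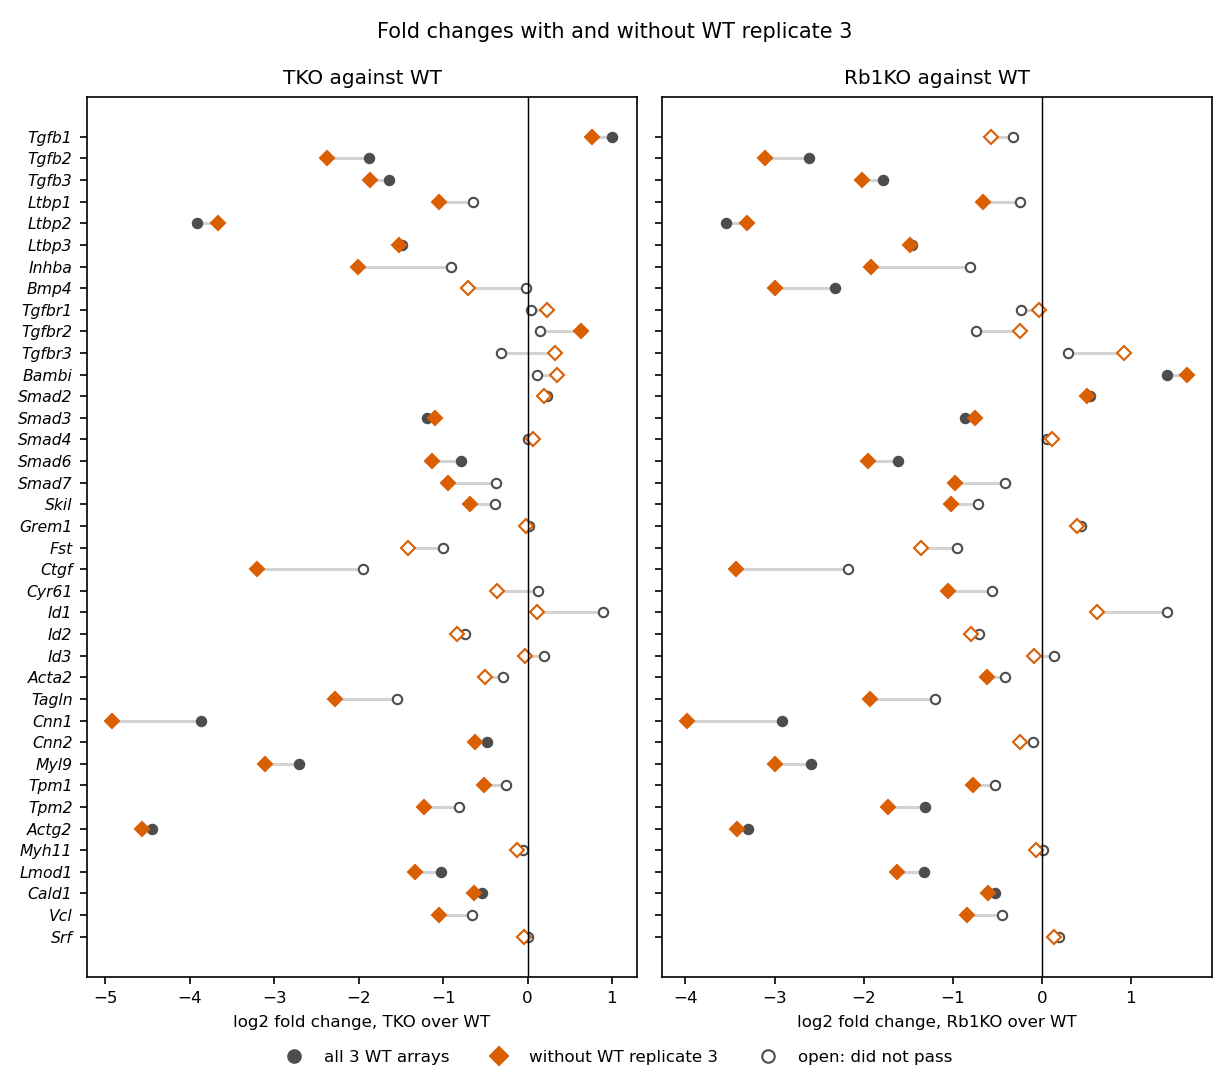
Log2 fold changes of the 38 genes in TKO over WT MEFs (left) and in the arrays labelled Rb1KO over WT (right), with all 3 WT arrays (dark grey circles) and without WT replicate 3 (orange diamonds). Open symbols did not pass at an adjusted p under 0.05. Ctgf moves to -3.20 in TKO and to -3.43 in Rb1KO and becomes called, while Ltbp3 and Smad3 hardly move.

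Other genes of the same pathways, from a list of 46 of which 40 were measured, were called in both directions. In TKO against WT MEFs 3 were higher and 10 lower (32.5% called, against 19.5% of all probe sets), and on the arrays labelled Rb1KO against WT 5 and 10 (37.5% against 22.6%). In TKO against Rb1KO there were 4 and 4 (20.0% against 7.17%), and in TKO-Ras against TKO MEFs 0 and 5 (12.5% against 5.67%). Bmp2, another BMP ligand, was at least 4.43-fold higher in TKO MEFs than in WT MEFs (adjusted p = 0.000263), where it was below background on every array, and as much higher than on the arrays labelled Rb1KO (adjusted p = 0.00111). Both bounds were 6.83-fold without TKO replicate 2, 4.11-fold without TKO replicate 1 and 3.1-fold without TKO replicate 3. The BMP receptor gene Bmpr1b fell below background in TKO MEFs, by at least 2.86-fold against WT MEFs (adjusted p = 0.00226). This bound was 4.63-fold without WT replicate 3, 2.29-fold without WT replicate 1 and 2.21-fold without WT replicate 2. Id4, of the Id family, stood out on the arrays labelled Rb1KO: it was higher there than in WT by 2.59 (adjusted p = 0.00564), or by 1.95 without WT replicate 3, and it was lower in TKO MEFs than on those arrays by a log2 fold change of -4.85 (adjusted p = 0.000282). The BMP regulator Bmper was also higher on the arrays labelled Rb1KO than in WT, by 2.67 (adjusted p = 0.000305). Nbl1, a secreted antagonist of BMP, was lower than in WT on these arrays (-1.86 on the log2 scale, adjusted p = 0.000392) and in TKO MEFs (-1.65, adjusted p = 0.00104). Inhbb, a subunit of activin B, fell by 2.97 in TKO-Ras against TKO MEFs (adjusted p = 0.0201), and Smad1, which carries the BMP signal, fell by 0.49 (adjusted p = 0.0251). The Inhbb call was lost without TKO replicate 1 or 2 or TKO-Ras replicate 1 or 3 (adjusted p = 0.0603 to 0.0885), and that of Smad1 without TKO replicate 1 or 3 or TKO-Ras replicate 1 or 3 (adjusted p = 0.0526 to 0.101).

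Of 29 other genes of Srf and the actomyosin system measured (30 listed), 1 was higher and 7 lower in TKO against WT MEFs (27.6% called, against 19.5% of all probe sets) and 1 and 8 on the arrays labelled Rb1KO against WT (31.0% against 22.6%). In TKO against Rb1KO there were 2 and 0 (6.90% against 7.17%), and in TKO-Ras against TKO MEFs 0 and 3 (10.3% against 5.67%). Without WT replicate 3 the number lower was 13 in TKO and 16 on the arrays labelled Rb1KO against WT. Of all probe sets 21.0% were then called in TKO (10.9% higher and the rest lower) and 23.9% on the arrays labelled Rb1KO (12.6% higher and the rest lower). Palld, palladin, a scaffold of stress fibres, was called lower at -1.23 in TKO (adjusted p = 0.000739), -0.95 on the arrays labelled Rb1KO (adjusted p = 0.00306) and -1.35 in TKO-Ras against TKO MEFs (adjusted p = 0.00145). Lpp, an adhesion protein abundant in smooth muscle, was lower at -1.50 in TKO and -1.35 on the arrays labelled Rb1KO. Mylk, the kinase of the myosin light chain, was lower at -2.85 on the arrays labelled Rb1KO against WT (adjusted p = 0.0151), a value that was -1.79 without WT replicate 3 (adjusted p = 0.00739) and -3.47 without WT replicate 2. It was higher at 2.92 in TKO against Rb1KO (adjusted p = 0.0334), a call lost without TKO replicate 2 or 3 or any 1 of the arrays labelled Rb1KO (adjusted p = 0.0813 to 0.122). The nonmuscle myosin gene Myh10 fell by 1.83 in TKO-Ras against TKO MEFs (adjusted p = 0.000496). Mkl1, listed as Mrtfa, a partner of Srf, fell by 0.63 in the same comparison (adjusted p = 0.0268), a call lost without any 1 TKO array or TKO-Ras replicate 2 or 3 (adjusted p = 0.0573 to 0.106).

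All 15 other genes of a YAP and TEAD list, which holds targets, regulators and the factors Yap1, Wwtr1 and Tead1, were measured. Of them 1 was higher and 8 lower in TKO against WT MEFs (60.0% called, against 19.5% of all probe sets) and 0 and 8 on the arrays labelled Rb1KO against WT (53.3% against 22.6%). In TKO against Rb1KO there were 3 and 0 (20.0% against 7.17%), and in TKO-Ras against TKO MEFs 1 and 3 (26.7% against 5.67%). Wisp2 and Wisp1, listed as Ccn5 and Ccn4 and thus relatives of Ctgf and Cyr61, were among them. Wisp2 averaged 7.27 in TKO-Ras MEFs, 10.15 in TKO MEFs, 8.80 on the arrays labelled Rb1KO and 12.06 in WT MEFs. It was lower at -1.90 in TKO (adjusted p = 0.0033) and at -3.25 on the arrays labelled Rb1KO (adjusted p = 7.78e-05) against WT, and at -2.88 in TKO-Ras against TKO MEFs (adjusted p = 0.000848). Wisp1 fell by 1.87 on the arrays labelled Rb1KO against WT (adjusted p = 2.06e-05) and fell by 1.58 in TKO-Ras against TKO MEFs (adjusted p = 0.000308). Nov, listed as Ccn3, went the other way, with 2.97 in TKO against WT MEFs (adjusted p = 0.0205) and 4.77 in TKO against Rb1KO (adjusted p = 0.00324). Against WT it was 4.20 without WT replicate 3 (adjusted p = 5.66e-06), and the call was lost without WT replicate 1 (2.45), WT replicate 2 (2.26) or TKO replicate 2 (2.72), with adjusted p = 0.0731 to 0.0809. The values of these listed genes with an array left out were added after the data were seen.

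Fibroblast markers were also called. Of 10 such markers, 1 (Dcn) was higher and 5 lower in TKO against WT MEFs (60.0% called, against 19.5% of all probe sets). Without WT replicate 3 there were 4 and 5, against 21.0% of all probe sets called. By limma, 0 were higher and 6 lower on the arrays labelled Rb1KO against WT (60.0% against 22.6%). In TKO against Rb1KO there were 2 and 1 (30.0% against 7.17%), and in TKO-Ras against TKO MEFs 0 and 5 (50% against 5.67%). The Dcn call against WT was lost without TKO replicate 2 or 3 or WT replicate 1 or 2 (adjusted p = 0.0889 to 0.185), and its log2 fold change was 3.07 without TKO replicate 1. Their linear values summed to between 48200 and 50100 in TKO-Ras MEFs, between 69400 and 76700 in TKO MEFs, between 54000 and 58300 on the arrays labelled Rb1KO and between 95300 and 110000 in WT MEFs, and their part in the results was not tested. Of other markers, 5 of 6 endothelial ones were below background on all 12 arrays, as were 3 of 6 macrophage and leukocyte markers, 3 of 6 epithelial markers and 1 of 5 measured cartilage and bone markers. Some of the rest were called, and those named here were chosen after their values were seen. Of the 5 measured in the cartilage and bone list, 2 were higher and 1 lower on the arrays labelled Rb1KO against WT. Over all probe sets 12.5% were called higher and 10.1% lower there. Acan, aggrecan of cartilage, averaged 7.31 on those arrays and 4.73 in WT MEFs (adjusted p = 2.96e-05), and Sox9, a factor of cartilage formation, averaged 9.08 and was 1.32 higher than in WT (adjusted p = 0.0211). The Sox9 call was lost without Rb1KO replicate 2 or 3 or WT replicate 1 or 2 (adjusted p = 0.0621 to 0.0786). Col2a1, cartilage collagen, averaged 5.09 there and was lower than in WT MEFs at -3.11 on the log2 scale (adjusted p = 2.03e-05). Of the 6 in the macrophage and leukocyte list, 2 were higher in TKO against WT MEFs, where 10.5% of all probe sets were called higher. Cd14 had means of 7.80 in TKO and 6.55 in WT MEFs (adjusted p = 0.000465), and Cd68 had 5.97 in TKO and 5.02 in WT MEFs (adjusted p = 0.00442). The part of these markers in the results was not tested.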

How the data were processed

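RNA of 12 MEF samples was amplified from 100 ng of total RNA with the 3' IVT Express kit and hybridised to Affymetrix MOE430 2.0 arrays. The deposited table holds 1 RMA value per probe set and array, which the authors made in Partek Genomics Suite 6.5 with background correction and normalisation by RMA. The scale is not labelled, and the deposited values, from 2.18 to 14.92, were taken as log2. RMA fixes the distribution of each array, so only relative levels are measured, and the number of arrays limits the precision.

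Of 45101 probe sets, 64 controls were left out, and 45037 were tested, of which 34945 carry 1 gene symbol, 932 several and 9160 none. Symbols came from the platform annotation, and genes were named from probe sets with 1 symbol. A 1-way layout of the 4 groups was fitted over all 12 arrays with limma 3.58.1 in R 4.3.3 (8 residual degrees of freedom), with moderated variances and Benjamini-Hochberg adjustment over all probe sets in each comparison. The scripts were tested on simulated data. The 38 genes and the lists were chosen with earlier results of these data known. All 38 genes could be named. Of each pathway list, up to 4 called genes a comparison could be named, those with the largest change whose groups did not overlap and whose higher group lay above background, and of each list of cell type markers the one highest in WT. Fold changes against a group below background on every array are given as lower bounds, as "at least", set against the level of 5.13.

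Alternatives were an intensity trend with robust moderation, the plain variances of the study's contrasts, a block for the replicate number, a fit on the arrays of the compared groups alone, median centring, cyclic loess, a filter on dim probe sets, averaging a gene's probe sets, leaving out those whose names carry a suffix, and leaving out each array. The counts of gene lists without WT replicate 3, and the values of listed genes other than the 38 with an array left out, were chosen after seeing the data. No genome build is given for the arrays, so gene positions come only with the RefSeq promoters.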

Additional observations from a re-analysis of the deposited data

Results flagged for a closer look

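Tgfb1, Bambi and Bmp4 were picked out because their differences from WT differed between the knockouts in a direct test, TKO against Rb1KO. The log2 fold change of Tgfb1 against WT was 1.0 in TKO MEFs (adjusted p = 0.0194 by limma) and -0.32 on the arrays labelled Rb1KO (adjusted p = 0.426), and TKO minus Rb1KO was 1.33 (adjusted p = 0.00967). For Bambi it was 0.11 in TKO MEFs (adjusted p = 0.84) and 1.40 on the arrays labelled Rb1KO (adjusted p = 0.00372), a difference of -1.29 (adjusted p = 0.0166). For Bmp4 it was -0.02 in TKO MEFs (adjusted p = 0.985) and -2.32 on the arrays labelled Rb1KO (adjusted p = 0.0118), a difference of 2.29 (adjusted p = 0.0316). The TKO arrays did not overlap the arrays labelled Rb1KO in any of the 3 genes, and the Bambi and Bmp4 differences lost their call when some single arrays were left out.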

How the results depend on the processing

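Each gene's fold change was recomputed under 15 alternatives a comparison. Of called values, 173 kept and 21 lost the call in TKO against WT MEFs, 213 and 10 on the arrays labelled Rb1KO against WT, 35 and 10 in TKO against Rb1KO, and 93 and 27 in TKO-Ras against TKO MEFs. No called value turned its direction, except Smad2 on the arrays labelled Rb1KO against WT, at -0.12 with suffixed probe sets left out.

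With plain variances, as in the contrasts of the methods, the number higher in TKO against WT MEFs was 0, those in TKO against Rb1KO were 1 higher and 0 lower, and 5 were lower in TKO-Ras against TKO MEFs. With only the groups compared in the fit, 5 were higher in TKO against Rb1KO. With a gene's probe sets averaged, or with suffixed ones left out, 1 was higher on the arrays labelled Rb1KO against WT, and with the filter on dim probe sets 1 was higher in TKO-Ras against TKO MEFs. Leaving out each array in turn gave 0 to 2 higher and 9 to 21 lower in TKO against WT MEFs. On the arrays labelled Rb1KO against WT it gave 2 to 3 higher and 11 to 23 lower. It gave 1 to 2 higher and 0 to 1 lower in TKO against Rb1KO. In TKO-Ras against TKO MEFs it gave 0 higher and 4 to 6 lower. Except without WT replicate 3, the share of all probe sets called was not worked out under these alternatives, the replicate block included. The counts under them therefore cannot be set against the whole array.

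Some uncalled values turned their sign. Averaging probe sets gave 0.02 for Skil and -0.71 for Cyr61 in TKO against WT MEFs, and probe sets without a suffix gave -1.90 for Cyr61. Leaving out each array gave from -0.36 to 0.46 for Cyr61, from -0.14 to 0.63 for Tgfbr2 and from -0.94 to 0.02 for Smad7 in TKO against WT MEFs, and from -0.66 to 0.02 for Ltbp1 on the arrays labelled Rb1KO. The causes were not tested.

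Same-numbered arrays did not deviate together in every pair (r from -0.207 to 0.191). With so few arrays a group, these values cannot tell whether arrays of the same number were handled together, which the labels do not say. With the number as a block, 1 gene was higher and 13 lower in TKO against WT MEFs, 2 and 14 on the arrays labelled Rb1KO against WT, 2 and 1 in TKO against Rb1KO, and 0 and 8 in TKO-Ras against TKO MEFs.

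The background level of 5.13 would be 3.84 as the median of those probe sets and 5.82 as their 99th percentile. Genes near it in a group, such as Cnn1, Actg2 and Ltbp2 in TKO-Ras MEFs, have compressed fold changes, and with 3 arrays a group small differences can be missed.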
